A study of Mus musculus with 3 samples.

Results

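Igfbp6 and Igfbp4 encode 2 members of the insulin-like growth factor (IGF) binding protein family, and they are the 2 genes of interest among the 31053 genes counted in single leukocytes of mouse blood. They were chosen by symbol, with earlier values of the same cells in view: Igfbp6 for its spread between libraries in neutrophils and monocytes, Igfbp4 for its level in T cells. Their levels are therefore described here and not tested. Blood leukocytes of C57/BL6J mice were profiled by droplet 3' single-cell RNA sequencing, in which each captured transcript is counted once through its unique molecular identifier (UMI). The labels give 3 groups, mice after 48 h of sleep deprivation (SD48h), mice after 24 h (SD24h) and controls at 0 h (Con), with 1 library per group, the leukocytes of 3 mice pooled in each and about 7000 cells planned. All groups share strain, tissue, red cell lysis and library chemistry, no allele or drug is named, and the age of the mice is not given in the labels.

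The 3 libraries stand in 1 count matrix and are told apart by the number at the end of each barcode. No label ties a barcode ending to a group. The libraries are therefore called 3, 2 and 1 after their endings, none is taken as the control, no order in time is read from them, and differences between them are differences between pools of 3 mice without replication. All intervals are exact 95% intervals that cover counting error only, and no p-value is given. A count of 0 is set at a floor of 3 UMIs, which lies below its exact upper limit. Of 22204 barcodes, 18217 were kept: 5578 in library 3, 5775 in library 2 and 6864 in library 1. Of the kept barcode sequences, 44 occurred in more than 1 library. Library 1 stood apart in its neutrophils: 530 of its 542 neutrophil-like cells fell in a cluster of their own, led by Cd101, Jaml and Lst1, which met 5 of the 15 neutrophil markers and held 1 cell of library 3 and 26 of library 2. Cell classes were named from marker genes and are written with "-like". The 3 main classes are described by genes that were among the naming markers, so their shares do not check the names. Csf3r, the neutrophil growth factor receptor, had a UMI in 97.7% to 99.0% of neutrophil-like and 53.5% to 66.9% of monocyte-like cells. Csf1r, the monocyte growth factor receptor, had one in 96.1% to 97.8% of monocyte-like and 23.5% to 34.5% of neutrophil-like cells. The T cell receptor subunit Cd3e had one in 91.5% to 93.3% of T-like cells and at most 2.97% of neutrophil-like or monocyte-like cells.

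IGF binding proteins are secreted proteins that hold IGF-I and IGF-II in blood and tissues, and so set how much growth factor reaches its receptor. IGFBP6 differs from its relatives in binding IGF-II much more tightly than IGF-I. IGFBP4 binds both growth factors and is known mainly as an inhibitor of their action, which is relieved when the protease pappalysin cuts it. Circulating IGF-I comes largely from the liver. A UMI of these genes in a leukocyte records transcript in that cell or droplet, not protein in plasma.

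Igfbp6 (ENSMUSG00000023046) is a protein-coding gene on the plus strand of chromosome 15, positions 102144362 to 102149511 of GRCm38 in the GENCODE M21 annotation. Igfbp4 (ENSMUSG00000017493) is a protein-coding gene on the plus strand of chromosome 11, positions 99041244 to 99054392. Because these 2 relatives were counted in different cells, their promoter windows are shown, from 250 bases before to 50 bases after the RefSeq start site, read 5′ to 3′ on the plus strand of GRCm38.p6. Capitals mark matches, on either strand, to TATAAA (the TATA box), GGGCGG (a GC box), GAGGAA (an ETS-type purine-rich core) or CTTTGA (a TCF/LEF-type core). The first window is chr15:102143936-102144235 and the second is chr11:99040994-99041293.
Igfbp6: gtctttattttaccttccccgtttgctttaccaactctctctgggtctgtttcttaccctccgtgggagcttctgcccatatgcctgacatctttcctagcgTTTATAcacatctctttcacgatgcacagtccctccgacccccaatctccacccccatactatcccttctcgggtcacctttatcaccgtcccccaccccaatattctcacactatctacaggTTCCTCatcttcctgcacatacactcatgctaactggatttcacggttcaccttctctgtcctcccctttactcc
Igfbp4: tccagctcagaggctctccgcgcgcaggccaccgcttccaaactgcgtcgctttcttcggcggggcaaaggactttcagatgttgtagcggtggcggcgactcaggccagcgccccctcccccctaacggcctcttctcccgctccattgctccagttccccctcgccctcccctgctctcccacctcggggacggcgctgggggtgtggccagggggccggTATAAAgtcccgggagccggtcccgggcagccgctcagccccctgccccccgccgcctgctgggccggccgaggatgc
The Igfbp4 window was the richer in G and C, at 71.3% with 27 CG dinucleotides, against 49.7% and 8 in the Igfbp6 window. Of 32851 promoter windows of the same length, 84.5% held fewer CG dinucleotides than that of Igfbp4 and 51.4% fewer than that of Igfbp6. A TATAAA match occurred in both windows, and 13.6% of all windows held one. In Igfbp4 it stood on the gene's strand at window position 223, which lies 28 bases before the start site. In Igfbp6 it stood on the other strand at position 103. A GAGGAA match, present in 28.3% of all windows, occurred in the Igfbp6 window and not in that of Igfbp4. Neither window held GGGCGG or CTTTGA, which 35.7% and 16.003% of all windows did. The GENCODE start of Igfbp6 lies 176 bases downstream of the RefSeq start, so the window shown holds the RefSeq start alone. For Igfbp4 the 2 starts coincide.

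Among neutrophil-like, monocyte-like, T-like, B-like and NK-like cells, Igfbp6 was highest in neutrophil-like and next in monocyte-like cells of libraries 3 and 2. It was low or at 0 in both classes in library 1. In neutrophil-like cells it had 4038 UMIs in 1986 cells of library 3, 4307 UMIs in 3242 cells of library 2 and 23 UMIs in 542 cells of library 1. Per 1000000 UMIs of the class and library (CPM) these were 363 (352 to 374) in library 3, 376 (365 to 388) in library 2 and 14.8 (9.39 to 22.2) in library 1. Libraries 3 and 2 lay close together and library 1 far below both. The level in library 3 was 24.5 times (16.3 to 38.7), and that in library 2 was 25.4 times (16.9 to 40.1), the level in library 1. Of 9336 genes with at least 20 UMIs in these cells, 0.686% were at least 4-fold higher in both libraries 3 and 2 than in library 1, and Igfbp6 was chosen for being among them. A stricter filter kept cells with 500 or more genes and up to 5% mitochondrial UMIs. Under it a Cd101-led cluster with 496 cells of library 1, best matched to neutrophils, stayed unnamed by the marker rule. That left 22 neutrophil-like cells with 0 Igfbp6 UMIs in library 1. Library 2 was then 8.35-fold above the floor of 3 UMIs in library 1, with an interval that began at 2.76 on the log2 scale.

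The difference was seen in how many cells held the transcript. At least 1 Igfbp6 UMI was found in 68.4% of neutrophil-like cells of library 3, 52.9% of library 2 and 3.87% of library 1. Cells with a UMI held 2.97 on average in library 3, 2.51 in library 2 and 1.10 in library 1. These means are not matched for depth. Where so few cells have a UMI, as in library 1, such a mean lies near 1 by counting alone. They therefore show no separate difference in the amount per cell. The count spread over many cells: the top cell held 17 UMIs, 0.421% of the class total, in library 3, 25 UMIs, 0.580%, in library 2 and 2 UMIs, 8.70%, in library 1. Depth differed between libraries, with a median of 5136.5 UMIs per neutrophil-like cell in library 3, 3215.5 in library 2 and 2746.5 in library 1. After each cell was thinned to 1000 UMIs, which left out 60, 128 and 11 shallower cells in libraries 3, 2 and 1, the share with a UMI was 30.2% in library 3, 27.4% in library 2 and 1.32% in library 1. The gap to library 1 remained at equal depth.

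**Figure D1:**
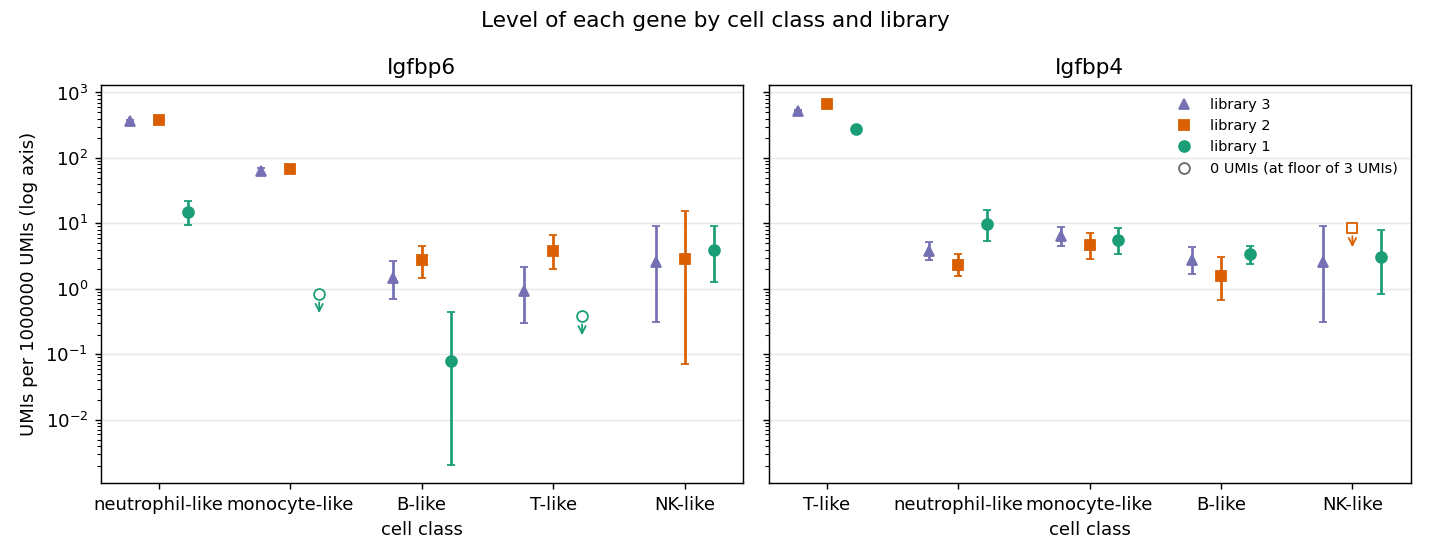
Level of Igfbp6 (left) and Igfbp4 (right) by cell class in libraries 3, 2 and 1, as UMIs per 1000000 UMIs on a log axis; points are class sums, bars exact 95% Poisson intervals, and open points classes with 0 UMIs placed at the floor of 3 UMIs. In neutrophil-like cells Igfbp6 reached 363 CPM in library 3 and 376 CPM in library 2 against 14.8 CPM in library 1, while Igfbp4 lay between 281 and 662 CPM in T-like cells and below 10 CPM in the other classes drawn.

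**Figure D2:**
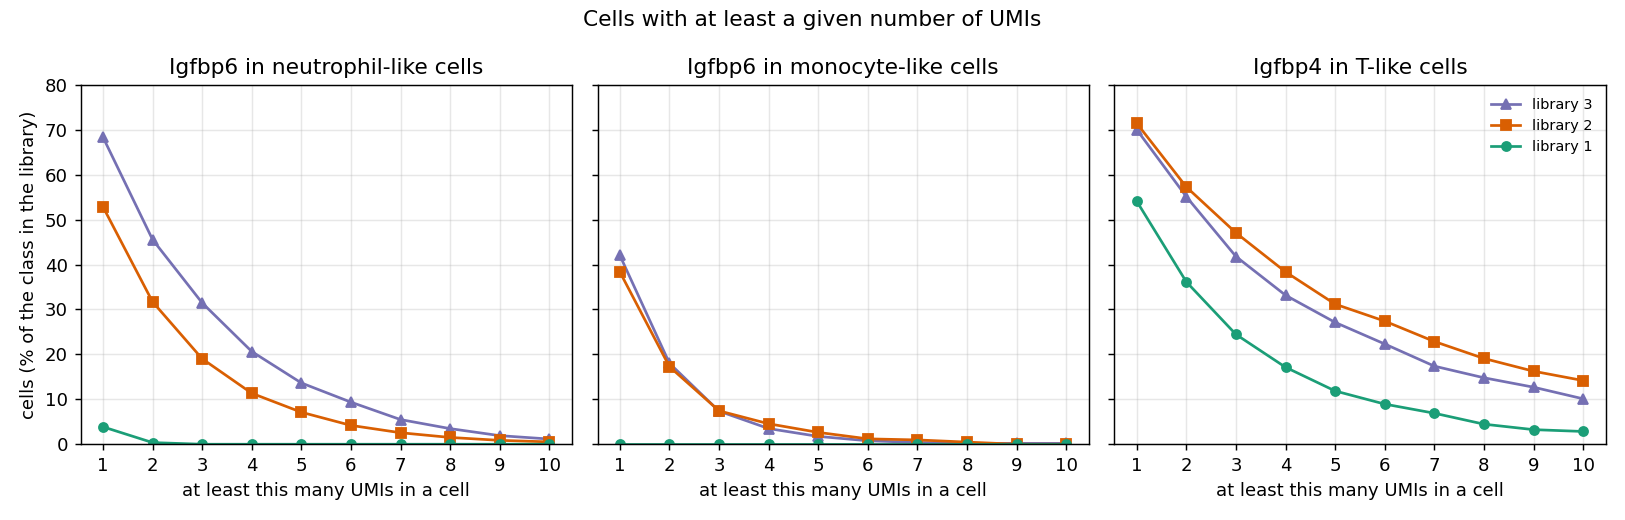
Share of cells (%) with at least a given number of UMIs, for Igfbp6 in neutrophil-like and monocyte-like cells and Igfbp4 in T-like cells, 1 line per library. At least 3 Igfbp6 UMIs were found in 31.5% of neutrophil-like cells of library 3, 19.0% of library 2 and 0% of library 1, and at least 3 Igfbp4 UMIs in 41.8%, 47.1% and 24.5% of T-like cells of libraries 3, 2 and 1.

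Within the neutrophil-like class Igfbp6 differed between clusters, in the same order in both libraries that held them. The clustering used none of the IGF genes, but the levels are a description, since the clusters come from the same cells. The cluster led by Clec4n and Entpd3 was highest, with the cytokine gene Il1b and Igfbp6 itself among its leading genes. It had 1208 CPM (1109 to 1314) in 165 cells of library 3 and 595 CPM (573 to 618) in 1589 cells of library 2. Next was the cluster led by Mmp8, a collagenase of neutrophil granules, with 503 CPM (478 to 529) in 678 cells of library 3 and 233 CPM (221 to 246) in 1387 cells of library 2. Lowest was the cluster led by Ngp and Prok2, where Ngp encodes a granule protein made early in neutrophil maturation, at 258 CPM (247 to 270) in 1142 cells of library 3 and 176 CPM (150 to 206) in 240 cells of library 2. The Clec4n-led cluster stood 4.68-fold (4.25 to 5.15) above the Ngp-led one in library 3 and 3.38-fold (2.88 to 3.98) in library 2.

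The near-equal class levels of libraries 3 and 2 did not hold inside the clusters. Over the whole class library 3 stood at 0.964 times library 2 (0.923 to 1.01). Within the Mmp8-led cluster it stood at 2.16 times (2.00 to 2.32), within the Clec4n-led cluster at 2.03 times (1.85 to 2.23) and within the Ngp-led cluster at 1.46 times (1.24 to 1.73). The 2 libraries filled the clusters differently: the lowest cluster held 1142 of the 1986 cells in library 3 and 240 of 3242 in library 2, while the highest held 165 and 1589. Library 1 had 3 to 5 cells in each of these clusters and no Igfbp6 UMI in them, so no level can be given there. In the Cd101-led cluster library 2 had 352 CPM (208 to 556), from 18 UMIs in 26 cells, and library 1 had 15.2 CPM (9.63 to 22.8) in 530 cells. Library 2 stood 23.2-fold (11.8 to 44.8) above library 1 within that cluster.

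**Figure D3:**
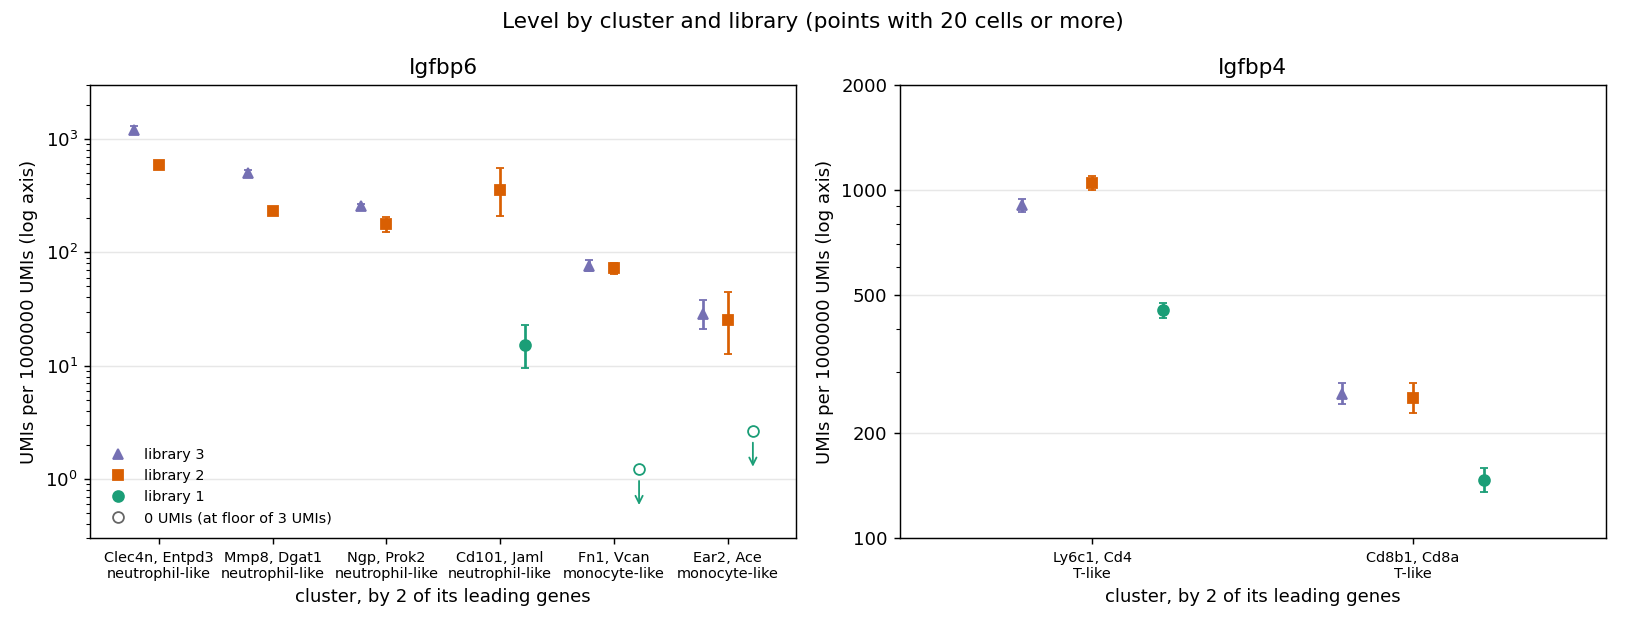
Level of Igfbp6 in neutrophil-like and monocyte-like clusters (left) and of Igfbp4 in T-like clusters (right), as UMIs per 1000000 UMIs on a log axis, by library, with exact 95% Poisson intervals; points with under 20 cells are not drawn, and open points are clusters with 0 UMIs at the floor of 3 UMIs. In each of the first 3 neutrophil-like clusters library 3 lies above library 2, and in both T-like clusters library 1 lies below the others.

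Within libraries 3 and 2, Igfbp6 was lower in neutrophil-like cells with a UMI of a granule or maturation gene than in cells without one. For Ngp the levels were 259 CPM in cells with a UMI and 539 CPM in cells without in library 3, a ratio of 0.48 (0.45 to 0.51). In library 2 they were 231 CPM with and 433 CPM without, a ratio of 0.53 (0.49 to 0.58). Of the 8 granule and maturation genes listed (Ngp, Ltf, Camp, Lcn2, Mmp8, Ly6g, Prok2 and Retnlg), every ratio that could be formed in libraries 3 and 2 lay below 1, between 0.24 for Retnlg in library 3 and 0.63 for Prok2 in library 2. Ltf had too few cells with a UMI in library 2. Cells with a UMI of Il1b, an inflammatory cytokine, went the other way, with 428 CPM against 177 CPM without in library 3, a ratio of 2.41 (2.20 to 2.65), and 387 CPM against 186 CPM in library 2, a ratio of 2.07 (1.72 to 2.53). Thinned to 1000 UMIs, Igfbp6 had a UMI in 36.1% of cells with and 23.0% of cells without an Il1b UMI in library 3, and in 29.6% and 16.04% in library 2. For Cxcr2, the chemokine receptor of mature neutrophils, and for Cd101 the intervals of the ratio included 1 in both libraries. Only 23 cells of library 3 and 31 of library 2 had no Cxcr2 UMI. For Jaml the 2 libraries differed in direction, with ratios of 1.14 (1.07 to 1.22) in library 3 and 0.80 (0.75 to 0.85) in library 2. With 23 UMIs, library 1 gave no interval that excluded 1 except for Mmp8, at 0.38 (0.15 to 0.95).

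**Figure D4:**
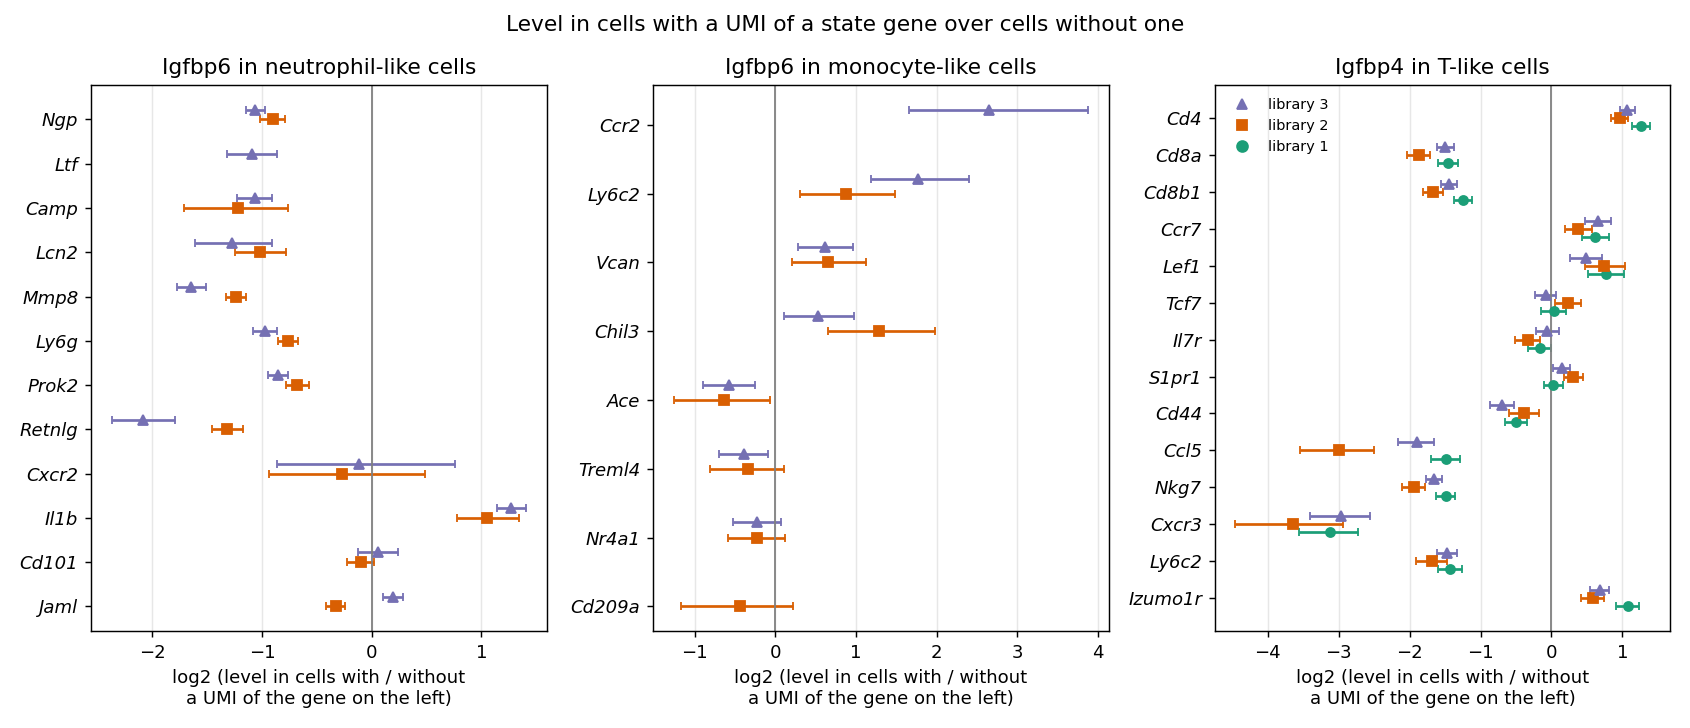
Log2 ratio of the level in cells with a UMI of a state gene (named at the left) to the level in cells of the same class without one, for Igfbp6 in neutrophil-like and monocyte-like cells and Igfbp4 in T-like cells, with exact 95% conditional intervals, by library; libraries with under 100 UMIs of the plotted gene are not drawn. Igfbp6 lies below 0 for granule genes such as Ngp and above 0 for Il1b in libraries 3 and 2, and Igfbp4 lies lowest for Cxcr3 and Ccl5 and highest for Cd4.

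Monocyte-like cells held Igfbp6 at a lower level and with the same split between libraries. There were 384 UMIs in 516 cells of library 3, 304 UMIs in 417 cells of library 2 and 0 UMIs in 404 cells of library 1. These were 63.3 CPM (57.1 to 70.0) in library 3 and 67.9 CPM (60.5 to 76.0) in library 2, while the floor for the 0 of library 1 was 0.835 CPM and 0.743% of cells with a UMI, and its exact upper limits were 1.03 CPM and 0.909%. Library 3 stood 75.8-fold and library 2 stood 81.3-fold above that floor. The exact intervals of these ratios put the level at least 61.3-fold higher in library 3, and at least 65.7-fold higher in library 2, than in library 1. Among 10443 genes measured in monocyte-like cells, 0.575% were at least 4-fold higher in both libraries 3 and 2 than in library 1. A UMI was found in 42.1% of cells in library 3 and 38.4% in library 2, and the top cell held 10 and 8 UMIs, 2.60% and 2.63% of the class total. The level in neutrophil-like cells was 5.73 times (5.16 to 6.38) that in monocyte-like cells in library 3 and 5.54 times (4.93 to 6.25) in library 2. Smaller classes also held the transcript. Red-cell-like cells, with 0 UMIs in library 1, had 50.3 CPM (32.6 to 74.3) in library 3 and 37.2 CPM (23.3 to 56.3) in library 2. Dendritic-like cells had 42.9 CPM (20.6 to 78.8) in library 3 and 25.2 CPM (8.17 to 58.7) in library 2.

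Both monocyte-like clusters held the transcript in libraries 3 and 2. One, led by Fn1, Vcan and Ccr2, genes known from classical monocytes, had 76.4 CPM (68.5 to 85.1) in library 3 and 72.5 CPM (64.5 to 81.3) in library 2. The other, led by Ear2, Ace and Adgre4, genes known from non-classical monocytes, had 28.8 CPM (21.2 to 38.1) in library 3 and 25.2 CPM (12.6 to 45.1) in library 2. The Fn1-led cluster stood above the other by 2.66-fold (1.96 to 3.68) in library 3 and 2.88-fold (1.59 to 5.83) in library 2. Library 1 had 0 UMIs in the 223 cells of the Fn1-led cluster and in the 181 of the other. By single genes, Igfbp6 was 73.6 CPM in cells with a UMI of Ly6c2, a classical marker, and 21.7 CPM in cells without in library 3, and 73.1 CPM and 40.0 CPM in library 2. For Ace, a non-classical marker, the levels were 48.9 CPM with and 72.6 CPM without in library 3, and 45.8 CPM and 71.2 CPM in library 2.

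Neutrophil RNA in the monocyte-like cells moved with this result. The 15 neutrophil markers summed to 8496 CPM in monocyte-like cells of library 3, 13983 CPM in library 2 and 3127 CPM in library 1, and 11 of them were higher in both libraries 3 and 2 than in library 1, with none at 0. Monocytes themselves express some of these genes. Set against S100a8, an abundant calcium-binding protein gene of neutrophils, Igfbp6 had 16.4 UMIs (14.8 to 18.2) per 1000 S100a8 UMIs in monocyte-like cells of library 3 and 12.4 (11.02 to 13.8) in library 2. In neutrophil-like cells it had 2.48 (2.41 to 2.56) in library 3 and 3.21 (3.12 to 3.31) in library 2. The lymphocytes, with few UMIs of either gene, also lay above the neutrophil-like proportion: T-like cells had 3.61 (1.17 to 8.43) in library 3 and 13.01 (6.93 to 22.3) in library 2, B-like cells 4.18 (2.00 to 7.69) and 6.64 (3.63 to 11.1), and NK-like cells 6.90 (0.835 to 24.9) and 5.75 (0.146 to 32.0). The intervals of T-like cells in library 3, of B-like cells in library 3 and of NK-like cells in both libraries held the neutrophil-like value of the same library, and those of T-like cells in library 2 and of NK-like cells in both libraries held the monocyte-like value. Within library 2 monocyte-like cells above the class median of S100a8 per UMI had 90.7 CPM of Igfbp6 and the others 46.4 CPM, a ratio of 1.95 (1.54 to 2.50), and within library 3 the values were 69.6 CPM and 55.4 CPM, a ratio of 1.26 (1.02 to 1.55). In library 1 the monocyte-like cells carried 4739 S100a8 UMIs and no Igfbp6 UMI, which is 0 per 1000 (0 to 0.778). That interval held the neutrophil-like value of library 1, 0.232 (0.147 to 0.347) per 1000. Among lymphocytes of library 1, T-like cells had 0 (0 to 16.8) and B-like cells 2.90 (0.0734 to 16.1) per 1000. NK-like cells had 27.5 (8.92 to 64.1), from 5 Igfbp6 UMIs, above the neutrophil-like value. The part of neutrophil RNA in the Igfbp6 counts of monocyte-like cells was not tested.

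Lymphocytes held few Igfbp6 UMIs. T-like cells had 0.936 CPM in library 3, 3.83 CPM in library 2 and 0 in library 1, from 5, 13 and 0 UMIs. B-like cells had 1.46, 2.72 and 0.0805 CPM in libraries 3, 2 and 1, from 10, 14 and 1 UMIs. NK-like cells had 2.56, 2.82 and 3.89 CPM, from 2, 1 and 5 UMIs, and so were not lowest in library 1. The share of T-like cells with a UMI was 0.617% in library 3 and 2.08% in library 2, at median depths of 6309 and 6252 UMIs, against 42.1% and 38.4% of monocyte-like cells at 11782.5 and 10985 UMIs. At 1000 UMIs per cell it was 0.248% and 0.570% of T-like cells, against 6.45% and 5.29% of monocyte-like cells. The part of free RNA or neutrophil RNA in these lymphocyte shares was not tested.

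In library 1 most Igfbp6 UMIs belonged to 1 cell. Of 431 Igfbp6 UMIs in kept cells of library 1, 398 (92.3%) lay in 1 barcode with 27299 UMIs, which the clustering placed among the 29 dendritic-like cells of that library. That barcode had no UMI of Ptprc, the pan-leukocyte marker CD45, and had 132 of Dcn, 107 of Sparc, 36 of Col1a1 and 387 of Ptn, genes of extracellular matrix and secreted factors that were looked up after its values were seen. With it, neutrophil-like cells of library 1 stood at 0.955 times (0.598 to 1.45) the other named classes together, and without the top cell of each class at 58.9 times. The neutrophil-like share of the library's kept Igfbp6 UMIs was 5.34% with that barcode and 69.7% without it. No such cell carried the values of the other libraries, where neutrophil-like cells held 90.2% of Igfbp6 UMIs in library 3 and 92.3% in library 2 and stood 16.4-fold (14.9 to 18.2) and 14.8-fold (13.3 to 16.6) above the other named classes. Of 11141 genes, 3.48% stood at least 4-fold above the other classes in neutrophil-like cells of every library. Igfbp6 met that in libraries 3 and 2, and in library 1 only without that barcode. The class ratio moved with the processing, between 8.69-fold (cells with 500 or more genes and up to 5% mitochondrial UMIs) and 39.1-fold (TMM scaling) in library 3 and between 7.19-fold and 31.1-fold in library 2. A finer clustering placed the barcode with 398 UMIs among the monocyte-like cells, which turned the log2 ratio of library 2 to library 1 in that class to -0.64, and it was 6.99 in the same clustering without that barcode.

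Igfbp4 was a T cell transcript in all 3 libraries. T-like cells held 2809 UMIs in 811 cells of library 3, 2244 UMIs in 529 cells of library 2 and 2197 UMIs in 1231 cells of library 1. The levels were 526 CPM (507 to 546) in library 3, 662 CPM (635 to 690) in library 2 and 281 CPM (269 to 293) in library 1. These were 95.9%, 97.5% and 95.2% of all kept Igfbp4 UMIs of libraries 3, 2 and 1. T-like cells stood 113-fold (94.0 to 137) above the other named classes together in library 3, 258-fold (198 to 342) in library 2 and 64.4-fold (51.9 to 80.7) in library 1, and 2.33% of 11141 genes were at least 4-fold above them in T-like cells of every library. With called doublets kept the ratio of library 2 was 133-fold, and without the top cell of each class that of library 3 was 175-fold.

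The order of the T cell levels was library 2, then 3, then 1. The intervals cover counting error only, with 1 pool of mice per library. Library 2 stood at 2.35 times (2.22 to 2.50) and library 3 at 1.87 times (1.77 to 1.98) the level of library 1. Among 10332 genes measured in T-like cells, 9.89% spread at least 2-fold between the highest and the lowest library and 0.997% were at least 2-fold higher in both libraries 3 and 2 than in library 1. Igfbp4 met the first and not the second. A UMI was found in 70.0% of T-like cells of library 3, 71.5% of library 2 and 54.1% of library 1, and at 1000 UMIs per cell in 34.5%, 39.7% and 20.6%. Depth was similar, with medians of 6309, 6252 and 6165 UMIs in libraries 3, 2 and 1. Cells with a UMI held 4.95 on average in library 3, 5.94 in library 2 and 3.30 in library 1, and the top cell held 27, 44 and 28 UMIs, at most 1.96% of the class total. Neutrophil RNA in T-like cells also differed between libraries, with the 15 neutrophil markers summing to 721 CPM in library 3, 854 CPM in library 2 and 94.8 CPM in library 1. Neutrophil-like cells themselves held Igfbp4 at under 10 CPM, and the part of neutrophil RNA in the T cell difference was not tested.

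T-like cells with Cd4 held more Igfbp4 than those with Cd8a or Cd8b1 in every library. One cluster was led by Ly6c1, Igfbp4 itself and Cd4, and is named here by Ly6c1 and Cd4. It had 903 CPM (864 to 943) in library 3, 1047 CPM (1000 to 1096) in library 2 and 451 CPM (429 to 474) in library 1. The cluster led by Cd8b1 and Cd8a had 260 CPM (243 to 279), 253 CPM (228 to 279) and 147 CPM (136 to 159). The Cd4-led cluster stood 3.47-fold (3.19 to 3.77) above the Cd8b1-led cluster in library 3, 4.14-fold (3.71 to 4.63) in library 2 and 3.06-fold (2.79 to 3.36) in library 1. Split by UMIs alone, cells with Cd4 and no Cd8a or Cd8b1 UMI stood 3.11-fold (2.84 to 3.40), 3.47-fold (3.11 to 3.88) and 3.26-fold (2.94 to 3.62) above cells with Cd8a or Cd8b1 and no Cd4 UMI in libraries 3, 2 and 1. Library 1 was lowest in both clusters. Against it the Cd4-led cluster stood at 2.00 times (1.87 to 2.14) in library 3 and 2.32 times (2.17 to 2.49) in library 2, and the Cd8b1-led cluster at 1.77 times (1.59 to 1.97) and 1.72 times (1.51 to 1.95). In the Cd4-led cluster library 3 stood at 0.862 times library 2 (0.809 to 0.919). In the Cd8b1-led cluster the interval included 1, at 1.03 times (0.913 to 1.16). The 2 libraries also filled the clusters differently. The Cd4-led cluster held 399 of the 811 T-like cells in library 3 and 308 of 529 in library 2. The class difference between these libraries therefore does not lie within the Cd4-led cluster alone.

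Among T-like cells Igfbp4 was low in those with effector or memory genes and in those with Cd8a or Cd8b1. In cells with a UMI of Cxcr3, a chemokine receptor of effector and memory T cells, the level was 75.3 CPM, against 588 CPM in cells without in library 3. In library 2 it was 57.2 CPM with and 716 CPM without, and in library 1 it was 38.0 CPM with and 331 CPM without. The ratios were 0.13 (0.09 to 0.17), 0.08 (0.05 to 0.13) and 0.11 (0.09 to 0.15) in libraries 3, 2 and 1. The ratio was also below 1 in every library for Ccl5 (0.27, 0.13 and 0.36 in libraries 3, 2 and 1), a chemokine of effector cells, for the cytotoxic granule gene Nkg7 (0.32, 0.26 and 0.36), for Ly6c2 (0.36, 0.31 and 0.37) and for Cd44 (0.62, 0.77 and 0.71), an activation and memory marker. It was above 1 in every library for Ccr7, the lymph node homing receptor of naive and central memory cells (1.57, 1.30 and 1.54), for Lef1, a transcription factor of naive T cells (1.40, 1.68 and 1.70), and for Izumo1r, the CD4 T cell folate receptor family member (1.60, 1.50 and 2.10). After thinning to equal depth, the Ccr7 difference ran the other way in library 1. There an Igfbp4 UMI was found in 17.9% of cells with and 21.8% of cells without a Ccr7 UMI. The shares were 40.2% and 31.8% in library 3 and 45.3% and 37.1% in library 2. For Lef1 they were 37.8% and 32.7%, 39.9% and 39.6%, and 22.3% and 19.4% in libraries 3, 2 and 1. For Izumo1r the share was higher in cells with a UMI in every library. For Tcf7, a T cell transcription factor, and Il7r, the interleukin-7 receptor, the ratios stayed between 0.79 and 1.17. In libraries 3, 2 and 1 the ratios were 0.35, 0.27 and 0.36 for Cd8a and 0.37, 0.32 and 0.42 for Cd8b1. These lay near the ratios of Nkg7 and Ly6c2. The part of the difference between Cd4 and Cd8 cells in the ratios of effector or memory genes was not tested. At a finer clustering, cells led by Ikzf2, Cxcr3 and Ccl5 had 40.3 CPM in 78 cells of library 3, 72.2 CPM in 43 cells of library 2 and 26.5 CPM in 177 cells of library 1, while the remaining Cd8b1-led cells had 322, 293 and 208 CPM. A small cluster led by Ikzf2, Ctla4 and Icos, with Foxp3 among its leading genes, had 0 Igfbp4 UMIs in 4, 8 and 10 cells of libraries 3, 2 and 1. The floor of 3 UMIs there was 225, 65.3 and 50.9 CPM.

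Outside T-like cells Igfbp4 was sparse and rested partly on single cells. Monocyte-like cells of libraries 3, 2 and 1 had 39, 21 and 20 UMIs, which is 6.43, 4.69 and 5.57 CPM. Neutrophil-like cells had 43, 27 and 15 UMIs, or 3.86, 2.36 and 9.66 CPM. In library 3 a single neutrophil-like cell held 22 of the 43 UMIs (51.2%), and without it the level was 1.89 CPM. That cell had 6 UMIs of the Cd3d, Cd3e and Cd3g genes and 573 of S100a8. In library 1 a single monocyte-like cell held 9 of 20 UMIs (45.0%) and had 12 Cd3 UMIs. Per 100 Cd3 UMIs, Igfbp4 had 22.2, 27.8 and 13.1 UMIs in T-like cells of libraries 3, 2 and 1. The same proportion was 30.7, 12.7 and 17.6 in neutrophil-like, 27.1, 61.8 and 21.1 in monocyte-like, 31.7, 22.9 and 26.3 in B-like and 2.53, 0 and 8.16 in NK-like cells. The monocyte-like value of library 2 rests on 21 Igfbp4 and 34 Cd3 UMIs, and NK-like cells had 2, 0 and 4 Igfbp4 UMIs in libraries 3, 2 and 1. The part of T cell RNA in these counts was not tested.

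The 2 genes seldom met in 1 cell. Both had a UMI in 17 of 1986 neutrophil-like cells of library 3, 14 of 3242 of library 2 and 0 of 542 of library 1, and in 4, 8 and 0 T-like cells. Over 18 sums by class and library, Pearson's r of their log2(CPM + 1) levels was -0.20, a description over points that share libraries and cells. The 8 genes most like Igfbp6 over the same points were Sema6b (r = 0.96), Lrg1, Il1r2, Crispld2, Ifitm1, Tgm1, Lcn2 and Ly6g (r = 0.92). Each of the 8 was higher in neutrophil-like than in monocyte-like cells of every library. Sema6b, which encodes a semaphorin, had 52.6 CPM in neutrophil-like cells of library 3, 90.4 CPM in library 2 and 5.79 CPM in library 1. Il1r2, the decoy receptor of interleukin-1, had 583, 640 and 127 CPM there. The 8 genes most like Igfbp4 were Ly6c1 (r = 0.98), Actn2, Stx1a, Themis, Cd8b1, Cd6, Cd4 and Cd8a (r = 0.93), of which Ly6c1, a lymphocyte surface antigen, had 116, 109 and 82.0 CPM in T-like cells of libraries 3, 2 and 1. In the same cells the co-receptor genes were nearly level across libraries 3, 2 and 1, with Cd4 at 70.4, 70.8 and 69.6 CPM and Cd8a at 215, 206 and 204 CPM.

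The rest of the IGF system was given by a list of 44 genes, all of them in the file. Of the ligands, Igf2 had no UMI and Igf1 had 3 UMIs in all barcodes. Of the other binding proteins, Igfbp1 and the acid-labile subunit gene Igfals had none, Igfbp2 had 4 and Igfbp7 8 in kept cells. Also in kept cells, Igfbp3 had 50 and Igfbp5 163, of which 1 and 3 lay in B-like or T-like cells of library 1 and none in the neutrophil-like, monocyte-like or NK-like cells. The pappalysin genes Pappa, whose product cuts IGFBP4, and Pappa2 had no UMI, nor had their inhibitor gene Stc1. Stc2, which encodes another inhibitor of the pappalysins, had 6 UMIs in all barcodes, 2 in T-like cells of library 3 and 4 in T-like cells of library 1. Of the receptors, Igf1r, which carries the growth signal of IGF-I and IGF-II, was highest in neutrophil-like cells in every library, at 149 CPM in library 3, 323 CPM in library 2 and 436 CPM in library 1. Igf2r, which takes up and clears IGF-II, was highest in NK-like cells, at 47.3, 42.3 and 37.3 CPM in libraries 3, 2 and 1. Insr, the insulin receptor, stood between 18.3 and 34.1 CPM in neutrophil-like cells.

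The spread between libraries was counted over the list in the 3 classes. In monocyte-like cells 1 of 28 measured list genes, Igfbp6, spread at least 2-fold, against 15.8% of all genes, and the median spread was 1.35-fold for the list and 1.37-fold for all genes. In T-like cells 2 of 27, Igfbp4 and the mTOR regulator Tsc2, did so, against 9.89% of all genes, with a median spread of 1.35-fold for the list and 1.27-fold for all genes. In neutrophil-like cells 14 of 28 did, against 51.6% of all genes, with medians of 1.95-fold and 2.04-fold. There, Igfbp6 was the 1 list gene at least 2-fold higher in both libraries 3 and 2 than in library 1, against 2.47% of all genes. The 7 list genes at least 2-fold lower in both, against 24.1% of all genes, included Igfbp4, the PI3-kinase catalytic subunit genes Pik3cb and Pik3cg, the kinase gene Rps6kb1, the transcription factor gene Foxo1 and Tsc2. Neutrophil-like cells of library 1 also carried more RNA of other cells: the 9 platelet markers summed to 3388 CPM in library 3, 3976 CPM in library 2 and 12974 CPM in library 1, and the 12 B cell markers to 82.5, 70.2 and 373 CPM. Their part in these differences was not tested.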

How the data were processed

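Leukocytes of mouse blood were counted by 10x Genomics 3' v3 chemistry in 3 libraries. The deposited values are raw UMI counts per gene and barcode, not normalised, in 1 matrix written by Cell Ranger 6.0.2 per the file headers. The submitters' processing notes give GRCm38 as the build and list Cell Ranger 4.0.0, Seurat 3.0, Trimmomatic 0.39 and R 4.0.2. The version behind the counts and the calling of barcodes are not given in the sources used here. Total counts per library were 36523283 (library 3), 30114546 (library 2) and 40807434 (library 1). Barcodes needed 200 or more genes and up to 10% mitochondrial UMIs. Doublets were scored with Scrublet in scanpy 1.11.5 and left out above a score of 0.25 in every library (207, 203 and 258 cells in libraries 3, 2 and 1), because the automatic threshold called 0.0983% in library 1. Cells were clustered by Leiden at resolution 1 on 2000 variable genes, without the IGF list, and named from marker lists. A cluster of 1972 cells, led by platelet genes, met all 12 B cell markers but stayed unnamed by the marker rule. It is in neither the B-like cells nor the other named classes. UMIs were summed per class and library and divided by all UMIs of that class and library. Intervals are exact Poisson for sums, Clopper-Pearson for shares and conditional binomial for ratios, at 95%. A count of 0 was set to 3 UMIs. Genes needed 20 UMIs in the cells compared, and 100 for the pattern ranking. Named genes were the 2 members, the IGF list, the 8 most alike genes and fixed state genes. The members, lists and rules were chosen with earlier results of these data known. Values of some listed genes are not reported here. The functions were tested on simulated data. TMM factors came from edgeR 4.0.16. No replicate exists, so no test was run.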

Additional observations from a re-analysis of the deposited data

Results flagged for a closer look

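In library 1, 1 kept barcode placed among the dendritic-like cells held 398 Igfbp6 UMIs, more than all other kept cells of that library together, and lies outside the neutrophil-like, monocyte-like and T-like cells compared above. UMIs of both genes also occurred in barcodes that were left out by the filters or as called doublets. For Igfbp6 these were 318 UMIs in library 3, 256 in library 2 and 121 in library 1. In library 1, 75 of the 121 lay in 1 barcode with 13.4% mitochondrial UMIs and no Ptprc UMI, and in library 3, 44 of the 318 lay in 1 barcode with 11.3% mitochondrial UMIs and 580 Mgp UMIs. For Igfbp4 the barcodes left out held 525 UMIs in library 3, 405 in library 2 and 475 in library 1.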

How the results depend on the processing

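No paired analysis was possible because each group has 1 library and no library is tied to a group. Values here are log2 ratios, over 94 combinations of a result and an alternative. Of these, 67 stayed within the counting interval of the reported value, 26 moved outside it and 1 reversed. For Igfbp6 in monocyte-like cells that interval has no upper limit, because library 1 had 0 UMIs. Only lower values could fall outside it. The value with called doublets kept, 8.21 with 1 UMI in library 1, thus counts as within it. The reversal was Igfbp6 of library 2 over library 1 in monocyte-like cells, 6.34 as reported and -0.64 at resolution 2, where the barcode with 398 UMIs joined that class. Without that barcode it was 6.99. The same ratio was 2.96 with cells thinned to 1000 UMIs, where 24 UMIs stand against the floor, and 5.89 within the Fn1-led cluster. In neutrophil-like cells it was 4.67, and 3.06 under the strict filter (500 genes, 5% mitochondrial). In that setting 496 cells of library 1 lay in a cluster best matched to neutrophils that stayed unnamed. Only 22 cells of library 1 were named neutrophil-like, with 0 UMIs. That filter gave no value for neutrophil-like cells over the other classes in library 1. There the ratio was -0.07 as reported, 5.90 with IGF genes allowed in the clustering, 5.88 without the top cell per class and 1.69 thinned. For library 3 it was 4.04 as reported, 3.12 strict, 3.87 with doublets kept, 4.20 with IGF genes allowed, 5.29 under TMM, 4.57 without S100a8 and S100a9 in the total and 5.02 thinned. For library 2 it was 3.89 as reported, 2.85 strict, 4.08 without a mitochondrial limit, 3.72 with doublets kept, 4.96 under TMM, 4.33 without S100a8 and S100a9 and 4.94 thinned. Igfbp4 of library 2 over library 1 in T-like cells was 1.24 as reported, 1.09 strict and 0.78 within the Cd8b1-led cluster. Igfbp4 in T-like cells over the other classes was 6.82 in library 3, against 7.24 strict, 7.24 without a mitochondrial limit, 7.45 without the top cells and 7.23 thinned. In library 2 it was 8.01, against 7.06 with doublets kept, and in library 1 it was 6.01, against 6.36 without the top cells. Apart from the cases tied to the 398-UMI barcode and the 22 cells, the cause was not tested. The cluster-restricted settings and the resolution 2 setting without that barcode were chosen after seeing the data. Depth limits what 23 Igfbp6 UMIs in neutrophil-like cells of library 1 can show.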

Other observations

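Red-cell-like and dendritic-like cells, described above mainly by their levels, also held Igfbp6. Red-cell-like cells had 25 UMIs in 96 cells of library 3, 22 UMIs in 84 cells of library 2 and 0 UMIs in 152 cells of library 1, and in both libraries with UMIs these lay in 8.33% of the cells. Dendritic-like cells had 10 UMIs in 18 cells of library 3 and 5 UMIs in 18 cells of library 2. In library 1, 2 of the 29 dendritic-like cells held the 400 UMIs counted, 398 in the barcode described above. The unnamed cluster led by platelet genes also met all 12 B cell markers. It had 3, 1 and 2 Igfbp6 UMIs in 280, 139 and 1553 cells of libraries 3, 2 and 1, and 1, 1 and 24 Igfbp4 UMIs.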
